A study of Homo sapiens with 8 samples.

Results

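The anaphase-promoting complex (APC/C) and its regulators were followed through 10 genes measured in resting and dividing cells of an established human B lymphoma line. The genes are the activators CDC20 and FZR1, the ubiquitin-conjugating (E2) enzymes UBE2C and UBE2S, the inhibitor FBXO5, the substrate PTTG1 and the core subunits CDC27, CDC16, CDC23 and ANAPC10. They were found by symbol among 19775 genes with a probe set of a single gene symbol, and all 10 passed the intensity filter that kept 11678 genes. They have 21 probe sets, 4 genes having 1 each and 6 having several. Each gene was read from its brightest probe set.

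The cells were RL, a line with the genotype label t(14,18)+, the translocation that joins BCL2 to the immunoglobulin heavy chain locus. Cells of all samples grew as multicellular aggregates (MALC) for 14 days and were stained with pyronin Y, which binds RNA. Pyronin Y bright cells were sorted as cycling and pyronin Y dull cells as quiescent, with 4 samples each, numbered 1 to 4 in both groups. Each sample was total RNA hybridised to an Affymetrix U133 Plus 2.0 array. The comparison asks which transcripts differ between both fractions of the same kind of aggregate. All samples come from 1 line. Nothing in the labels tells whether the 4 samples of a fraction are separate cultures, so the p-values describe a spread that may be technical. A sorted fraction is a bulk sample, in which fewer cells in a given cell cycle phase and less RNA per such cell cannot be told apart.

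The APC/C is a large ubiquitin ligase that marks proteins for breakdown by the proteasome. It needs an activator that brings in substrates: CDC20 serves in mitosis, and FZR1, also known as CDH1, serves from the end of mitosis through G1. UBE2C places the first ubiquitin on a substrate and UBE2S extends the chain. FBXO5, also known as EMI1, blocks the complex in S and G2 phase, and the spindle checkpoint blocks CDC20 until chromosomes are attached. Loss of securin, the product of PTTG1, frees separase to split sister chromatids. In resting cells APC/C with FZR1 is known for keeping mitotic proteins low.

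The deposited values are MAS5 intensities, which the authors had scaled to a trimmed mean of 500.1 on every array, and array medians ran from 71.9 to 113.4. Values were taken to log2 and the arrays centred on their medians. This choice matters, since centring lowered every quiescent minus cycling difference by 0.41 relative to the deposited scaling. Over all genes the median was −0.33 when centred, 0.08 under the deposited scaling and −0.04 with quantile normalization. Of 11678 genes tested, 3795 (32.5%) were called lower and 327 (2.8%) higher in quiescent cells with limma at an adjusted p under 0.05. As deposited, 15.4% were lower and 12.2% higher, and after quantile normalization 16.4% and 10.6%. Of 6 B cell markers 5 were measured and all 5 passed the filter. Of these, 4 (MS4A1, CD79A, CD22 and PAX5) were called lower in the centred values and under neither other scaling, and leaving out any 1 array other than cycling sample 2 left 0 to 2 of these calls. The summed intensity of 5 measured T cell markers was 276 to 551 on the 8 arrays, against 51025 to 62458 for the B cell markers. The 3′ to 5′ ratio (log2) of the ACTB controls, which reflects how intact the RNA is, was 2.02 ± 0.20 (SD, n = 4) on cycling and 2.57 ± 0.18 (SD, n = 4) on quiescent arrays (two-sided exact permutation p = 0.0286, the smallest that 70 assignments allow, and 0.0357 adjusted over 5 array measures). The log2 ratio of 3′ to middle GAPDH controls was 0.045 on cycling and 0.049 on quiescent arrays (exact permutation p = 0.914), while the other 3 measures (3′ to 5′ GAPDH, 3′ to middle ACTB and the array median) separated the groups as the ACTB ratio did, with the same p. This ACTB difference lies between the same arrays as every result that follows, and its part in them was not tested. Cycling sample 2 correlated with the quiescent arrays at a mean r of 0.945 across the genes tested, against 0.913 to 0.932 for the other cycling samples.

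Of the 10 APC/C genes, 8 were called lower in quiescent cells and none higher in the centred values with limma, against 32.5% and 2.8% of all genes tested. At an unadjusted p under 0.05 with limma the numbers were again 8 lower and 0 higher. The share of all genes at that threshold was not counted, so these numbers have no background. CDC20, UBE2C, UBE2S, FBXO5, PTTG1 and CDC27 were lower under all 3 scalings, as were 14.1% of all genes, and none was higher under all 3, as were 2.74%. CDC23 and ANAPC10 were called in the centred values and under neither other scaling. FZR1 and CDC16 were not called in the centred values. FZR1 was called higher as deposited and after quantile normalization, and CDC16 after quantile normalization. In the centred values 8 of the 10 had every quiescent array below every cycling array, as did 28.3% of all genes, and none had them above, as did 3.04%. On the deposited scale 7 of the 10 had every quiescent array below every cycling array, as did 15.4% of all genes, and FZR1 had every quiescent array above, as did 13.3%.

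**Figure D1:**
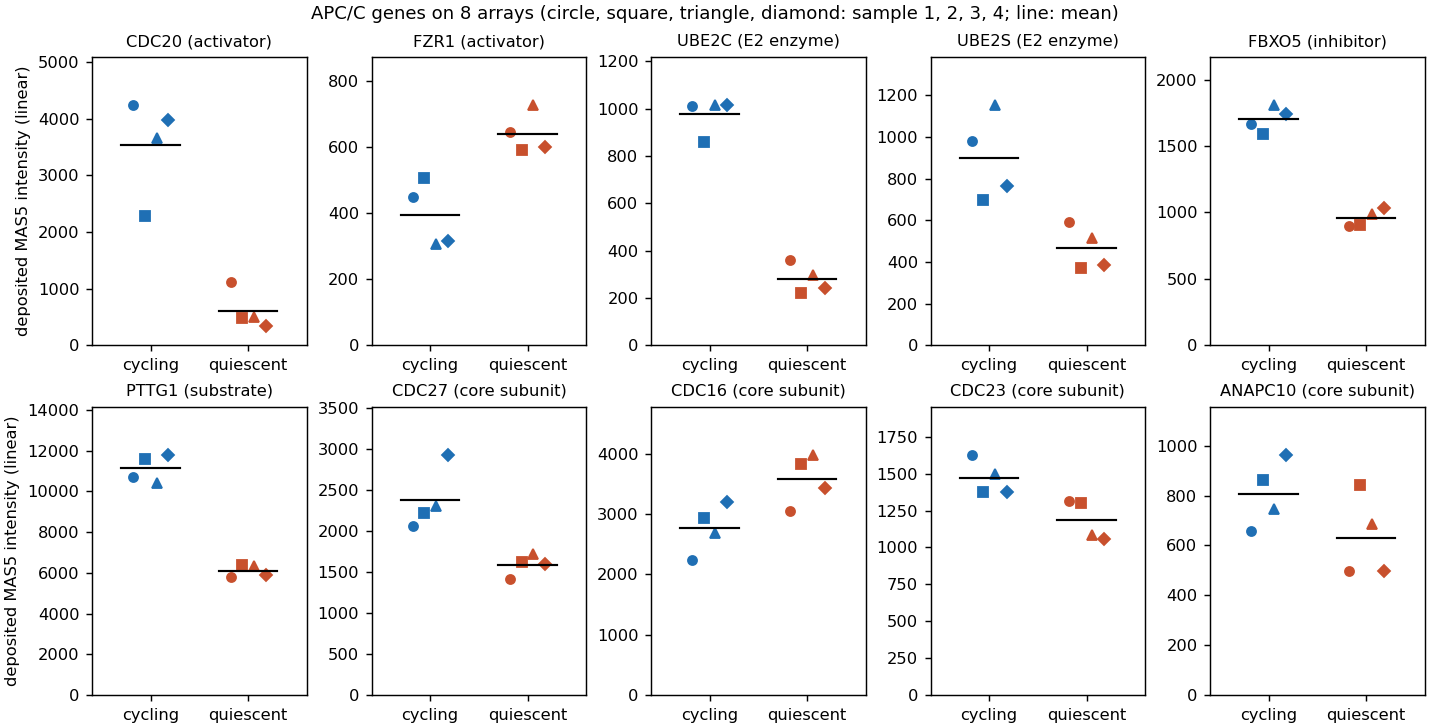
Deposited MAS5 intensity (linear axis from 0) of the 10 APC/C genes on each of 4 cycling and 4 quiescent arrays, with group means as lines. Quiescent arrays lie below all cycling arrays for CDC20, both E2 enzymes, FBXO5, PTTG1, CDC27 and CDC23, and above them for FZR1; the groups overlap for CDC16 and ANAPC10.

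The mitotic activator CDC20 fell most. Its intensity was 4236, 2282, 3651 and 3979 on cycling arrays 1 to 4 and 1118, 481, 505 and 343 on quiescent arrays 1 to 4. Cycling sample 2 was the lowest of its group and quiescent sample 1 the highest, and the groups did not overlap. The mean fell from 3537 ± 870.3 (SD, n = 4) to 612 ± 345 (SD, n = 4), or −3.05 on the log2 scale (SE 0.37, limma adjusted p = 9.29e-05). Only 38 of the 11678 genes tested had a lower difference, a rank that no array scaling by a constant can change. Without cycling sample 2 the difference was −3.34 (adjusted p = 1.68e-05).

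The promoter of CDC20 is shown because CHR and CCAAT elements are known marks of genes that peak in G2 and mitosis. RefSeq windows (GRCh38.p14) reach from 250 bases before to 50 after a start site, and 9 of the 10 genes matched with 15 windows, UBE2C being the exception. The letters searched on both strands were TTTGAA or TTCGAA for CHR, CCAAT, and TTCCCGC or TTGGCGC for E2F. The CHR letters occur in 16.4%, the CCAAT letters in 34.6% and the E2F letters in 9.23% of all 35116 windows, and CHR with CCAAT in 6.38%. A match is a description of the letters and not a binding site. The 150 bases before the CDC20 start, on the plus strand of chr1:43358831-43358980, hold CCAAT at 100 and 55 bases and TTTGAA at 65 bases before the start, in capitals:
CDC20: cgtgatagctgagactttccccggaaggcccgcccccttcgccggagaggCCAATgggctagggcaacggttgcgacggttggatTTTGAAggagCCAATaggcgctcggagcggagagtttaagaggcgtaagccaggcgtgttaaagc

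The G1 activator FZR1 did not follow CDC20. Its intensity was 449, 507, 309 and 316 on cycling arrays 1 to 4 and 648, 592, 728 and 600.3 on quiescent arrays 1 to 4. Every quiescent array was above every cycling array on this scale, with means of 395 ± 98.4 (SD, n = 4) and 642 ± 62.6 (SD, n = 4). The log2 difference was 0.32 centred (SE 0.20, limma adjusted p = 0.233), 0.73 as deposited (adjusted p = 0.0151) and 0.58 after quantile normalization (adjusted p = 0.0351). In the centred values the groups overlapped, so the call for FZR1 depends on the scaling. Of all genes tested 89.6% had a lower difference. Its 3 dimmer probe sets were not called under any of the 3 scalings, with centred differences of −0.16, 0.50 and −0.12. The annotated FZR1 windows hold TTTGAA at 226 bases before 1 start and TTCCCGC at 12 bases before the other.

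Both E2 enzymes fell. UBE2C, which starts the ubiquitin chain, had intensities of 1012, 860.3, 1014 and 1014 on cycling arrays 1 to 4 and 362, 222, 299 and 241 on quiescent arrays 1 to 4. Quiescent arrays were far below the cycling ones, which lay close together apart from sample 2. The mean fell from 975 ± 76.6 to 281 ± 63.5 (SD, n = 4 each), or by −2.23 on the log2 scale (SE 0.22, limma adjusted p = 1.8e-06) and −1.82 as deposited. UBE2S, which lengthens the chain, had 979, 697, 1154 and 763 on cycling arrays 1 to 4 and 594, 371, 514 and 385 on quiescent arrays 1 to 4. The nearest samples were cycling 2 and quiescent 1, and the groups did not overlap. The mean fell from 898 ± 208 to 466 ± 107 (SD, n = 4 each), or by −1.36 on the log2 scale (SE 0.25, limma adjusted p = 4.74e-04) and −0.95 as deposited. Of all genes tested, 1.11% had a lower difference than UBE2C and 5.24% a lower one than UBE2S.

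The inhibitor FBXO5 and the substrate PTTG1 fell by similar amounts. FBXO5 had 1666, 1592, 1808 and 1739.7 on cycling arrays 1 to 4 and 897, 903, 988 and 1032 on quiescent arrays 1 to 4. Both groups were narrow and lay far apart, and the mean fell from 1701 ± 93.5 to 955 ± 66.0 (SD, n = 4 each). The log2 difference was −1.25 (SE 0.18, limma adjusted p = 5.83e-05) and −0.83 as deposited. Its other probe set gave −1.54 (SE 0.20, limma adjusted p = 6.4e-05 over the probe sets), so both probe sets of FBXO5 were called lower.

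PTTG1, which encodes securin, had 10707, 11600.5, 10430 and 11807 on cycling arrays 1 to 4 and 5794, 6386, 6337 and 5908 on quiescent arrays 1 to 4. The groups lay far apart, with means of 11136 ± 670.3 and 6106 ± 299 (SD, n = 4 each). The log2 difference was −1.28 (SE 0.15, limma adjusted p = 1.18e-05) and −0.87 as deposited. The only probe set of PTTG1 has the suffix x_at, which marks probes that can also bind related sequences, and the gene has near-identical copies, so its signal may hold theirs.

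The windows of FBXO5 and PTTG1 are shown beside that of CDC20 because all 3 genes fell under every scaling and hold several CCAAT letters. Such letters do not set these 3 apart: windows of UBE2S, CDC27, CDC23 and CDC16, which was not called in the centred values, held them too. They were found in 8 of 15 member windows, from 7 of the 9 genes, beside 34.6% of all windows. FBXO5 has 2 annotated starts. The window of 1 of them, chr6:152983042-152983191 on the minus strand, holds CCAAT or its reverse at 141, 138, 98 and 68 bases and TTTGAA in reverse at 40 bases before the start. It was picked as the window with more matches, and that of the other start held none of the letters searched. PTTG1 on the plus strand of chr5:160421705-160421854 holds CCAAT or its reverse at 103, 51 and 48 bases. The window of its other annotated start holds them at 158, 106 and 103 bases. Where CCAATTGG occurs, a match on each strand overlaps. CHR letters were found in 4 of 15 member windows, beside 16.4% of all windows. Windows with both CHR and CCAAT letters were 2 of 15, from CDC20 and FBXO5, beside 6.38% of all windows. UBE2C had no window to search. The capitals again mark matches:
FBXO5: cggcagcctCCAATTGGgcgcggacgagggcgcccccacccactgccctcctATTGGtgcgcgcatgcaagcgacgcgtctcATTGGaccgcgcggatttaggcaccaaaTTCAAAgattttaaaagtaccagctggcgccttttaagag
PTTG1: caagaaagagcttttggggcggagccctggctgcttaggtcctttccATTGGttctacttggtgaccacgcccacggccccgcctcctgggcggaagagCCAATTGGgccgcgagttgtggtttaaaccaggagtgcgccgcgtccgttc

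The core subunits differed less, and not all were called. CDC27, CDC16 and CDC23 are subunits built of repeats that form the arm on which activators dock, and ANAPC10 helps to hold substrates. In the centred values 3 of the 4 were called lower and CDC16 was not. Under all 3 scalings, 1 of the 4 was lower, CDC27, beside 14.1% of all genes.

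CDC27 had 2060.2, 2220.4, 2311 and 2932 on cycling arrays 1 to 4 and 1414, 1619.7, 1718 and 1599 on quiescent arrays 1 to 4. The groups did not overlap and their means were 2381 ± 382 and 1588 ± 127 (SD, n = 4 each). Its log2 difference was −0.99 (SE 0.19, limma adjusted p = 5.62e-04), −0.58 as deposited (adjusted p = 8.62e-03) and −0.53 after quantile normalization (adjusted p = 0.0116). All 4 of its probe sets were called lower in the centred values, with differences of −0.92 to −1.08. The probe set at −1.02 was not called as deposited or after quantile normalization (limma adjusted p = 0.0714 and 0.0633 over the probe sets).

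CDC16 had 2236, 2942, 2684 and 3197 on cycling arrays 1 to 4 and 3057, 3828, 3988 and 3433 on quiescent arrays 1 to 4. The groups overlapped through cycling sample 4 and quiescent sample 1, and the means were 2765 ± 410.1 and 3577 ± 418 (SD, n = 4 each). The log2 difference was −0.04 centred (SE 0.18, limma adjusted p = 0.901), 0.38 as deposited (adjusted p = 0.0668) and 0.46 after quantile normalization (adjusted p = 0.0305), so its direction depends on the scaling. Relative to the median of all genes CDC16 was 0.30 higher in the centred values. Its 3 probe sets lay between −0.16 and −0.03 centred, and none was called there. After quantile normalization the dimmer probe sets were not called either (limma adjusted p = 0.144 and 0.113 over the probe sets).

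CDC23 had 1629, 1374, 1497 and 1375 on cycling arrays 1 to 4 and 1312, 1301, 1082 and 1055 on quiescent arrays 1 to 4. The groups did not overlap but lay close, with means of 1469 ± 121 and 1188 ± 138 (SD, n = 4 each). The log2 difference was −0.72 (SE 0.18, limma adjusted p = 5.44e-03) and −0.31 as deposited (adjusted p = 0.111). Its dimmer probe set, an x_at one, was called lower with −1.79 (SE 0.24, limma adjusted p = 8.14e-05 over the probe sets), and as deposited with −1.37 (limma adjusted p = 1.04e-03). The size of the CDC23 difference thus depends on the probe set.

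ANAPC10 had 658, 863, 746 and 964 on cycling arrays 1 to 4 and 496, 845, 684 and 497 on quiescent arrays 1 to 4. Quiescent sample 2 lay within the cycling range, and the means were 808 ± 134 and 630.5 ± 168 (SD, n = 4 each). The log2 difference was −0.79 (SE 0.22, limma adjusted p = 9.02e-03) and −0.38 as deposited (adjusted p = 0.185). Its dimmer probe set was not called (−0.21, SE 0.34, limma adjusted p = 0.688 over the probe sets).

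Windows of CDC27, CDC16 and CDC23 are shown because these core subunits held the E2F letters that the windows of CDC20, UBE2S, FBXO5 and PTTG1 did not. A window of FZR1 held them too, so the letters do not set core subunits apart from regulators. They were found in 4 of 15 member windows, from 4 of the 9 genes, beside 9.23% of all windows. TTCCCGC lies 62 bases before the start in CDC27 (minus strand, chr17:47189296-47189445) and 73 bases before it in CDC16 (plus strand, chr13:114234747-114234896). In CDC23 (minus strand, chr5:138213324-138213473) TTCCCGC lies at 186 bases, outside the stretch shown, and CCAAT or its reverse at 98, 72 and 17 bases. CDC27, which fell, and CDC16, which was not called, both have TTCCCGC letters in capitals:
CDC27: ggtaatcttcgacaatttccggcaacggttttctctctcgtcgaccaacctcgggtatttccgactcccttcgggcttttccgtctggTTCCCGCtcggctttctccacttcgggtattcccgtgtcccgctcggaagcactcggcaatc
CDC16: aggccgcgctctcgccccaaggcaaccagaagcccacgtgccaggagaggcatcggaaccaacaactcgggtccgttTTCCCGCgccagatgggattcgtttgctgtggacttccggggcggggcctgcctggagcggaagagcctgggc
CDC23: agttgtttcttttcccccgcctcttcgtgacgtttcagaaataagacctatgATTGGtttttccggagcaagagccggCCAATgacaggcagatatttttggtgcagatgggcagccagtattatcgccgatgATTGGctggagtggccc
All 4 ANAPC10 windows lack CCAAT and E2F letters, and 1 holds TTTGAA at 89 bases.

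**Figure D2:**
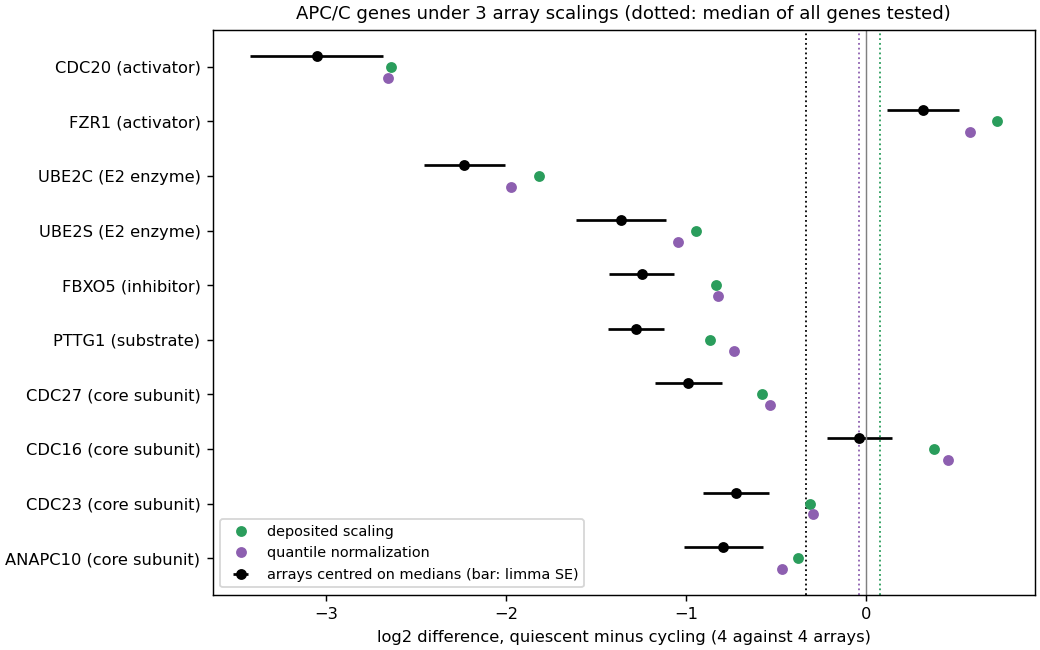
Log2 difference (quiescent minus cycling, 4 against 4 arrays) of the 10 APC/C genes with arrays centred on their medians (black, limma SE), as deposited (green) and after quantile normalization (purple), with the median of all genes tested as dotted lines. CDC20 at −3.05 and UBE2C at −2.23 lie far below the all-gene median under each scaling, while CDC16 changes sign with the scaling.

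**Figure D3:**
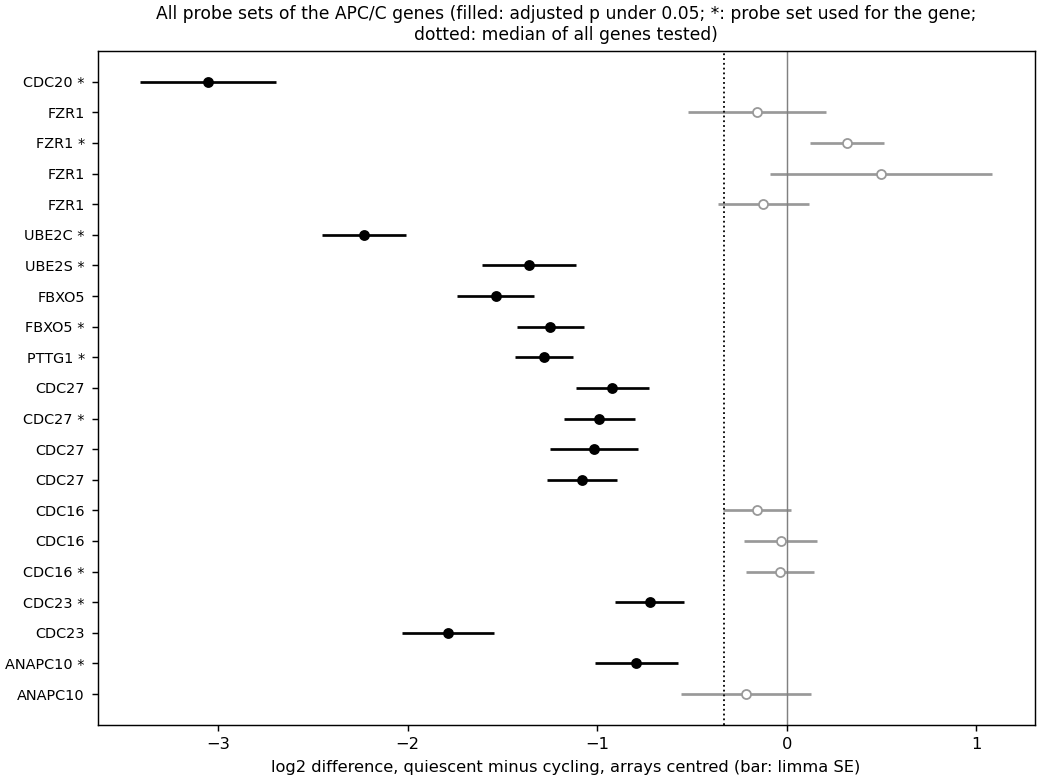
Log2 difference in the centred values with limma SE for all 21 probe sets of the 10 genes, filled where the adjusted p over all probe sets was under 0.05. All probe sets of CDC27 and FBXO5 are filled and none of FZR1 or CDC16, and the CDC23 probe sets lie apart at −0.72 and −1.79.

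The activators and E2 enzymes were set against the core subunits within each array, where scaling an array by a constant factor cancels. The measure was the mean log2 value of CDC20, FZR1, UBE2C and UBE2S minus that of CDC27, CDC16, CDC23 and ANAPC10. It is given with the mean of the cycling arrays taken off, as a description with no test. On cycling arrays 1 to 4 it was 0.34, −0.19, 0.09 and −0.24, and on quiescent arrays 1 to 4 it was −0.36, −1.36, −0.94 and −1.12. The groups did not overlap, and their means differed by −0.95, with an SD of 0.26 on cycling and 0.43 on quiescent arrays. After quantile normalization, which is not a constant factor, the means differed by −1.06. Without cycling sample 2 the centred difference was −1.01. FZR1 worked against the other regulators in this mean: without it the difference was −1.58, and FZR1 alone against the core subunits differed by 0.95.

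The ratio of the activators differed more than any of these means. The log2 ratio of CDC20 to FZR1, again relative to the cycling mean, was 0.08, −0.99, 0.41 and 0.50 on cycling arrays 1 to 4 and −2.37, −3.46, −3.69 and −3.96 on quiescent arrays 1 to 4. The groups lay far apart, with a difference of −3.37. The log2 ratio of FBXO5 to FZR1 differed by −1.56, with an SD of 0.44 on cycling and 0.16 on quiescent arrays. That of PTTG1 to the core subunits differed by −0.64, with an SD of 0.09 in each group. Such ratios show that RNA levels changed unequally and not that any of them stayed the same.

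**Figure D4:**
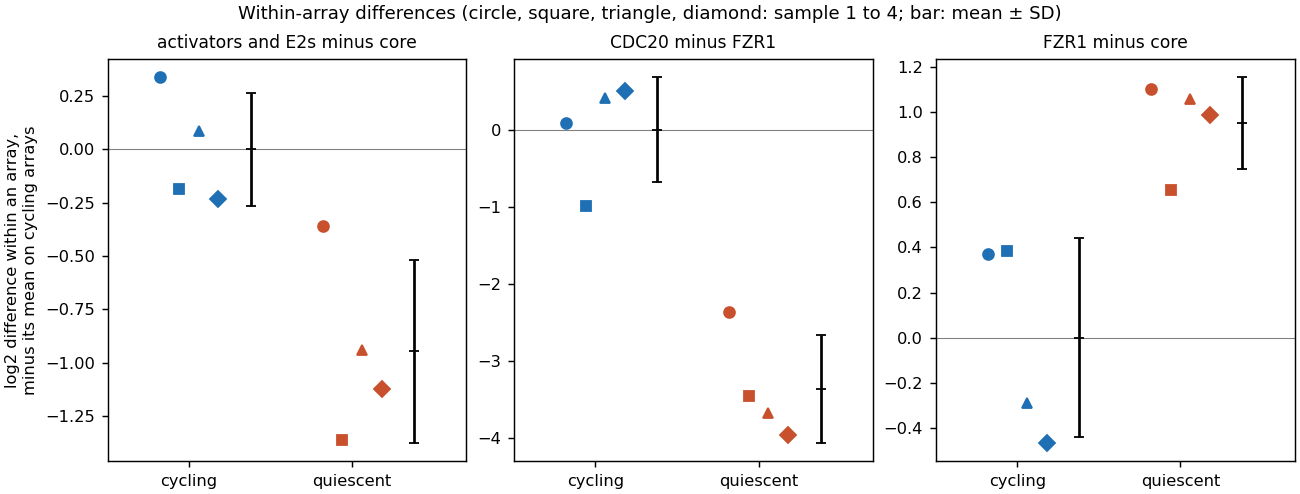
Log2 differences within each array, minus their mean on the 4 cycling arrays, for activators and E2 enzymes against core subunits, CDC20 against FZR1, and FZR1 against core subunits (bars, mean ± SD). The quiescent arrays lie below the cycling arrays in the plots that start from all regulators (−0.95) and from CDC20 (−3.37), and above them for FZR1 (0.95).

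The other core subunits were likewise mixed. Of 9 measured of 10 listed, 4 were called lower and none higher, against 32.5% and 2.8% of all genes, with a median log2 difference of −0.59 against −0.33 for all genes. At an unadjusted p under 0.05 with limma, 8 were lower and 0 higher, a count for which the share of all genes was not taken. ANAPC4 fell from 1425 ± 166 to 696 ± 155 (SD, n = 4 each), with a log2 difference of −1.46, and ANAPC15, ANAPC7 and ANAPC5 fell with −1.27, −1.15 and −0.95. These 4 were lower under all 3 scalings. ANAPC2, ANAPC11, ANAPC13, ANAPC16 and CDC26 were not called in the centred values. ANAPC16 had a log2 difference of 0.04 centred and was called higher as deposited (0.46, limma adjusted p = 4.11e-03) and after quantile normalization (0.58, limma adjusted p = 1.11e-03). ANAPC2, ANAPC11, ANAPC13 and CDC26 were called under none of the 3 scalings, with centred differences of −0.52, −0.59, −0.41 and −0.49. Their status rests on single arrays: without cycling sample 2 all 4 were called lower in the centred values (limma adjusted p = 0.0319, 0.00635, 0.0136 and 0.00823), so that 8 of 9 subunits were lower beside 39.0% of all genes. Without quiescent sample 1, 6 of 9 were lower, ANAPC2 and ANAPC11 among them, beside 31% of all genes. A fit with same-numbered samples as blocks called 8 of 9 lower, beside 38% of all genes.

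Of 8 spindle checkpoint genes, whose proteins hold CDC20 inactive or release it, 7 fell, beside 32.5% of all genes, and all 7 did so under all 3 scalings, beside 14.1%. The list median was −2.18. TRIP13, an ATPase that takes checkpoint complexes apart, fell from 2161 ± 617 to 239 ± 118 (SD, n = 4 each), or −3.71 on the log2 scale (SE 0.40, limma adjusted p = 4.35e-05). The kinases TTK and BUB1 fell, with −2.34 and −2.32, and MAD2L1, which binds CDC20, with −2.24. MAD1L1, the anchor of MAD2L1, was the member not called in the centred values (0.40, limma adjusted p = 0.0919). It was higher as deposited (0.81, limma adjusted p = 1.06e-03) and after quantile normalization (0.83, limma adjusted p = 1.06e-03).

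The lists of substrates had the lowest medians of the 5 lists. All 18 genes of the list of mitotic substrates with separase were called lower (32.5% of all genes), 17 of them under all 3 scalings (14.1% of all genes), with a median of −2.65. NEK2, a kinase of the centrosome, fell from 6257 ± 363 to 936 ± 504 (SD, n = 4 each), or −3.32 on the log2 scale (SE 0.32, limma adjusted p = 1.04e-05). Cyclin A, from CCNA2, fell with a log2 difference of −3.19, the cytokinesis protein ANLN with −3.04 and the cyclin CCNB2 with −3.02. SGO1, which protects sister chromatid cohesion, was called in the centred values and under neither other scaling (−0.60, limma adjusted p = 0.0291). Separase itself, ESPL1, the partner of securin, had a log2 difference of −2.64 and fell under all 3 scalings, as did PTTG1 with −1.28.

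The list of G1 and S substrates holds 11 genes whose proteins APC/C with FZR1 keeps low in G1. All 11 were called lower under all 3 scalings, beside 14.1% of all genes, with a median of −3.03. The arrays measured RNA, so APC/C activity on the proteins was not measured. RRM2, a subunit of ribonucleotide reductase, fell from 17961 ± 3916 to 1840.3 ± 1113 (SD, n = 4 each), or −3.91 on the log2 scale (SE 0.48, limma adjusted p = 3.28e-04). The transcription factor FOXM1 fell with −3.81, UHRF1, which maintains DNA methylation, with −3.65 and thymidine kinase, TK1, with −3.37. Of 7 other regulators tested of 12 listed, 2 fell under all 3 scalings, CCNF with −1.44 and MAD2L2 with −1.24, and 5 were not called. With 2 of 7 beside 32.5% of all genes lower in the centred values, and a list median of −0.23 beside −0.33, this list lay near the level of all genes. CCNF is the F-box cyclin, and MAD2L2 is a relative of MAD2L1.

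**Figure D5:**
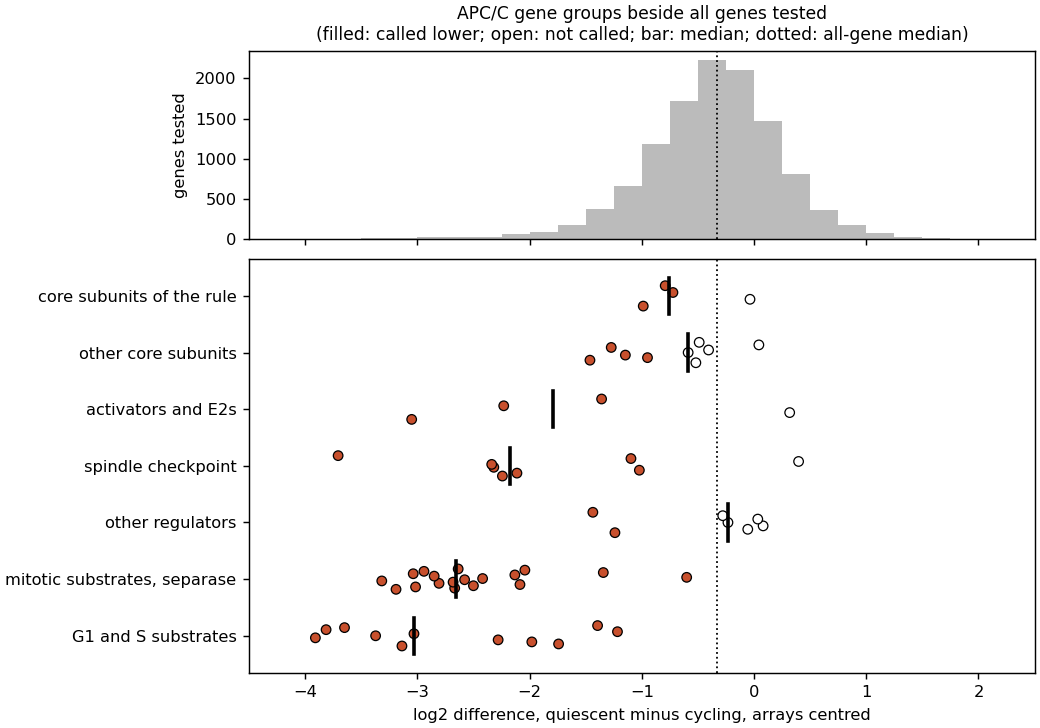
Log2 difference in the centred values of the genes in each APC/C group (filled, called lower; open, not called; bar, group median), below a histogram of all 11678 genes tested whose median of −0.33 is dotted. Mitotic substrates (median −2.65) and G1 and S substrates (−3.03) lie left of the core subunits (−0.76 and −0.59).

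The genes whose profiles over the 8 arrays were nearest to those of CDC20 and CDC27 were found by the root mean square difference of centred log2 values, each gene set to its own mean. For CDC20 they were DEPDC1B (0.25), SPC24 (0.27), a kinetochore subunit, and NLE1 (0.28), a factor of ribosome assembly. DEPDC1B went from 1233 ± 428 on cycling to 201 ± 76.3 on quiescent arrays (SD, n = 4 each). For CDC27 they were DNM1L (0.06), the GTPase that divides mitochondria, TMEM70 (0.08), which helps to assemble ATP synthase, and CCDC77 (0.09). DNM1L went from 3834 ± 548 to 2519 ± 285 (SD, n = 4 each). The log2 differences between the groups were −3.04, −3.33 and −2.79 for DEPDC1B, SPC24 and NLE1, beside −3.05 for CDC20. For DNM1L, TMEM70 and CCDC77 they were −1.02, −0.86 and −0.94, beside −0.99 for CDC27. These distances describe the 8 arrays, and a near profile includes a like difference between the groups.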

How the data were processed

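RNA of 4 cycling and 4 quiescent samples was measured on arrays. The authors deposited linear intensities computed with MAS5, per the submitters' processing notes; its version was not given. Per the labels' protocols, RNA was extracted with Trizol and labelled by a one-cycle protocol. Detection calls were not used here, so dim values cannot be told from background, and values are relative to the array and not amounts per cell.

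Intensities under 1 were set to 1, taken to log2 and centred on array medians, which differed by 0.66. Of 54675 probe sets 62 were controls, and 41091 had 1 gene symbol in the platform annotation, which can be old, 1801 several, and 11777 were unlisted. Entrez identifiers of 41037 matched RefSeq genes (GRCh38.p14), and 0 symbols changed. Genes whose mean lay under that of the median probe set (intensity 83.3) were removed, 8097 in all. Groups were compared with lmFit and eBayes (trend, robust) of limma 3.58.1 in R 4.3.3, with no covariate and with p-values adjusted by Benjamini and Hochberg over the 11678 genes. The fit was tested on simulated data. Tables and plots used Python 3.11.15 and pandas 2.3.3.

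The members and lists were chosen with earlier results of these data known. Genes named are the 10 members, up to 4 genes of each of 5 lists with the largest difference among those called alike under all 3 scalings, and the 3 genes nearest in profile to CDC20 and to CDC27. ANAPC2, ANAPC11, ANAPC13, ANAPC16, CDC26, MAD1L1, SGO1 and ESPL1 are named after their values were seen. Of 6 markers each, the lists of T cell, myeloid and stromal cells had 2, 1 and 2 genes above the filter, none of them called. Of 5 B cell markers 4 were called lower in the centred values, beside 32.5% of all genes, and none under either other scaling. Alternatives were both other scalings, 2 filters, 32 added before log2, plain eBayes, other probe set choices, a replicate block and each array left out.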

Additional observations from a re-analysis of the deposited data

Results flagged for a closer look

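CDC20 on the array of cycling sample 2 stood apart from the other cycling arrays. Its centred log2 value was 11.09 against 12.22 to 12.29, a gap of 0.935 of the range of the group, above Dixon's 95% critical value for 4 samples. The deposited intensity was 2282. This is the cycling array that correlates best with the quiescent ones, and the difference of CDC20 without it is given with its result. The log2 ratio of 3′ to 5′ GAPDH control probe sets on quiescent sample 4 was 0.14 against 0.10 on the other 3 quiescent arrays, a gap of 0.947 of the range. Chance flags about 1 in 20 groups, and 2 of 32 groups were flagged.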

How the results depend on the processing

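CDC20, UBE2C, UBE2S, FBXO5, PTTG1 and CDC27 kept their direction and their call under all 17 alternatives each, with CDC20 between −3.39 and −2.64. Not all of these could change a difference: the filters, plain eBayes and the replicate block alter only p-values. CDC20, UBE2C, UBE2S and PTTG1 have 1 probe set each, so other probe set choices left their differences as they were. The x_at probe set of PTTG1 was thus kept throughout. With the deposited scaling 1802 genes were lower and 1430 higher, 1 member was higher (FZR1, 0.73) and 2 list genes were higher. CDC16 then stood at 0.38, CDC23 at −0.31 and ANAPC10 at −0.38. With quantile normalization 1911 genes were lower and 1232 higher, 2 members and 2 list genes were higher, and CDC16 stood at 0.46. CDC16 was also above 0 with 32 added before log2 (0.0666), where 1 list gene was higher. Leaving out 1 array at a time gave CDC16 from −0.12 to 0.06 (0.0118, 0.0565, 0.0324 and 0.00396 without cycling 3, cycling 4, quiescent 1 and quiescent 4), 8 members lower each time, 41 to 46 list genes lower, 0 to 1 higher and 2938 to 4543 of all genes lower and 221 to 357 higher. With the mean of probe sets ANAPC10 was not called (−0.50, adjusted p = 0.102). The activator and E2 difference ranged from −1.14 to −0.81 when leaving out 1 array. Same-numbered samples had correlated deviations of 0.344, 0.196, 0.110 and 0.0361, all positive. Cycling samples 1, 2 and 3 each correlated best with the quiescent sample of their number, and cycling sample 4 with quiescent sample 3 (0.138). The labels number the samples but state no pairing, so the main fit left it out. Whether the numbers pair samples stays unsettled. A replicate block gave 4443 genes (38%) lower and 465 higher, with 8 members lower and 0 higher. It called 46 list genes lower and 1 higher, and among the other core subunits 8 of 9 lower, against 4 in the main fit. The number of arrays limits precision.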
